A study of Mus musculus with 28 samples.

Results

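The 44 genes described here drive or carry out cell division: entry into S phase, DNA replication, deoxynucleotide supply and mitosis. They were taken by gene symbol from a fixed list, and all 44 were found among the 32544 genes of each of 2 raw count tables, 1 for males and 1 for females. The libraries came from livers of C57BL/6 mice of 2 genotypes, floxed controls (CT) and mice with a knockout of c-Myc in endothelial cells (EC-Myc KO, KO below). Mice of both genotypes received tamoxifen, which switches on the Cre recombinase, at 5 weeks of age. Diet began 2 weeks later and lasted 5 weeks: either high-fat/cholesterol food (HFC) or low fat control food (CTD). The labels give an age of 13 weeks. Each of the 4 groups held 4 animals among males and 3 among females, and every library is a different numbered animal, so p-values measure the spread between animals. The promoter that drives Cre is not given in the sources used here. Animals on CTD have numbers between 298 and 320 and animals on HFC between 412 and 543, so any difference in when the animals were raised and the difference in diet cannot be told apart.

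Hepatocytes of an adult liver are mostly quiescent, and they re-enter the cell cycle after injury or loss of tissue. Cyclin D and cyclin E kinases release E2F factors, which switch on genes for DNA replication. Later in the cycle MYB and FOXM1, with the MuvB core, switch on genes for mitosis, which are held down in resting cells by the DREAM complex. The mitotic genes are commonly controlled through a CHR element and nearby CCAAT boxes bound by NF-Y, and the replication genes through E2F sites. Dividing macrophages, lymphocytes, erythroid precursors and bile duct cells carry the same transcripts, so whole liver does not say which cell type divides. In whole liver more dividing cells and more transcript per cell cannot be told apart.

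Promoter sequences are shown because many of these genes share letters there. RefSeq promoter windows (GRCm38.p6, from 250 bases before the annotated start to 50 after it) were matched for 36 of the 44 genes. The letters of a CHR element, TTTGAA or TTCGAA on either strand, were in 61.1% of these 36 windows and in 21.7% of the windows of all 27025 genes. CCAAT was in 80.6% against 41.1%, and both were in 58.3% against 8.61%. An E2F site, spelled TTTCCCGC, TTTGGCGC, TTTCGCGC or TTTGCCGC, was in 13.9% against 2.6%. The E-box CACGTG, the letters that MYC and its partners bind, was in 8.33% against 8.09%. These are matches of letters, described without a test. The 120 bases that end just before the RefSeq start are printed for 6 genes: Cdc20, Cdk1 and Top2a, mitotic genes that rose on HFC in KO males, Mcm6, a helicase gene that rose in KO males, and Tk1 and Rrm2, deoxynucleotide genes that fell in males of both genotypes. Capitals mark a CHR element, a CCAAT box or an E2F site on either strand.
Cdc20, chr4:118437344-118437463, minus strand: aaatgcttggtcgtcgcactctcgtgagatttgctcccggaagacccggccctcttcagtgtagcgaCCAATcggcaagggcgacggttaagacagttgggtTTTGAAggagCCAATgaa
Cdk1, chr10:69352913-69353032, minus strand: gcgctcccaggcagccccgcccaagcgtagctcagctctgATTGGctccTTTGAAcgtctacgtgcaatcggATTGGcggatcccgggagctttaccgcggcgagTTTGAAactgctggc
Top2a, chr11:99024190-99024309, minus strand: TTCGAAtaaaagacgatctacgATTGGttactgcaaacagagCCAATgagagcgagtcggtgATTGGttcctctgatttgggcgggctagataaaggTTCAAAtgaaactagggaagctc
Mcm6, chr1:128359706-128359825, minus strand: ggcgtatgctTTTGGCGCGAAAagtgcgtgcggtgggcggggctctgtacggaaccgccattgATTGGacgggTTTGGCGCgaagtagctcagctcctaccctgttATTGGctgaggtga
Tk1, chr11:117826015-117826134, minus strand: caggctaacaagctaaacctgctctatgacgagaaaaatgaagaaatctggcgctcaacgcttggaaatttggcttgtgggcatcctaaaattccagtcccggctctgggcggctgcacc
Rrm2, chr12:24708134-24708253, plus strand: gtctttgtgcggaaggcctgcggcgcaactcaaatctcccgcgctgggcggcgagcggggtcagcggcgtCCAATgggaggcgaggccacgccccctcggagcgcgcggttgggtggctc
In Cdc20 the CHR element begins 18 bases before the start, with CCAAT boxes beginning 53 and 8 bases before it. In Mcm6 the E2F letters begin 110, 106 and 47 bases before the start, the first of them in overlapping matches on opposite strands. None of the 4 kinds of letters was found in the window of Tk1.

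Totals ran from 22154774 to 22652285 counts in the libraries of males and from 18741939 to 19195502 in those of females. Levels below are CPM, counts scaled to the library's total, after further scaling by trimmed mean of M-values (TMM). All 44 genes passed the filter on low counts in both sexes, among 14078 genes tested in males and 13999 in females. Summed hepatocyte markers, 10 genes led by albumin, stood between 86700 and 199000 CPM in every library. Myc itself ranged from 3.09 to 20.1 CPM in male and from 4.6 to 20.5 CPM in female CTD livers and the KO means were not below the CT means; other cell types of a KO liver keep the gene, so the deletion cannot be checked here. In males the mean over CTD libraries was under 20 counts for 14 of the 44 genes and in females for 18 of them, so their folds carry wide errors.

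In males, HFC livers carried more of the mitotic transcripts, and in KO males most of the 44 genes rose. A gene is called here at an adjusted p under 0.05 in edgeR's quasi-likelihood test, with Benjamini-Hochberg adjustment over all tested genes. In KO males 30 of the 44 genes were called higher and 2 lower on HFC, while 15.5% of all tested genes were called higher and 13.6% lower. The median log2 fold change of the 44 was 1.30, and that of all tested genes -0.02. In CT males 12 were called higher and 2 lower, against 10.6% and 9.4% of all tested genes. The median of the 44 was then 0.79, and that of all tested genes -0.01. All 12 genes called higher in CT males were also called higher in KO males, 100% of the CT list and 40% of the KO list. The same overlap over all tested genes was not counted. The 2 called lower were Rrm2 and Tk1 in both genotypes.

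**Figure D1:**
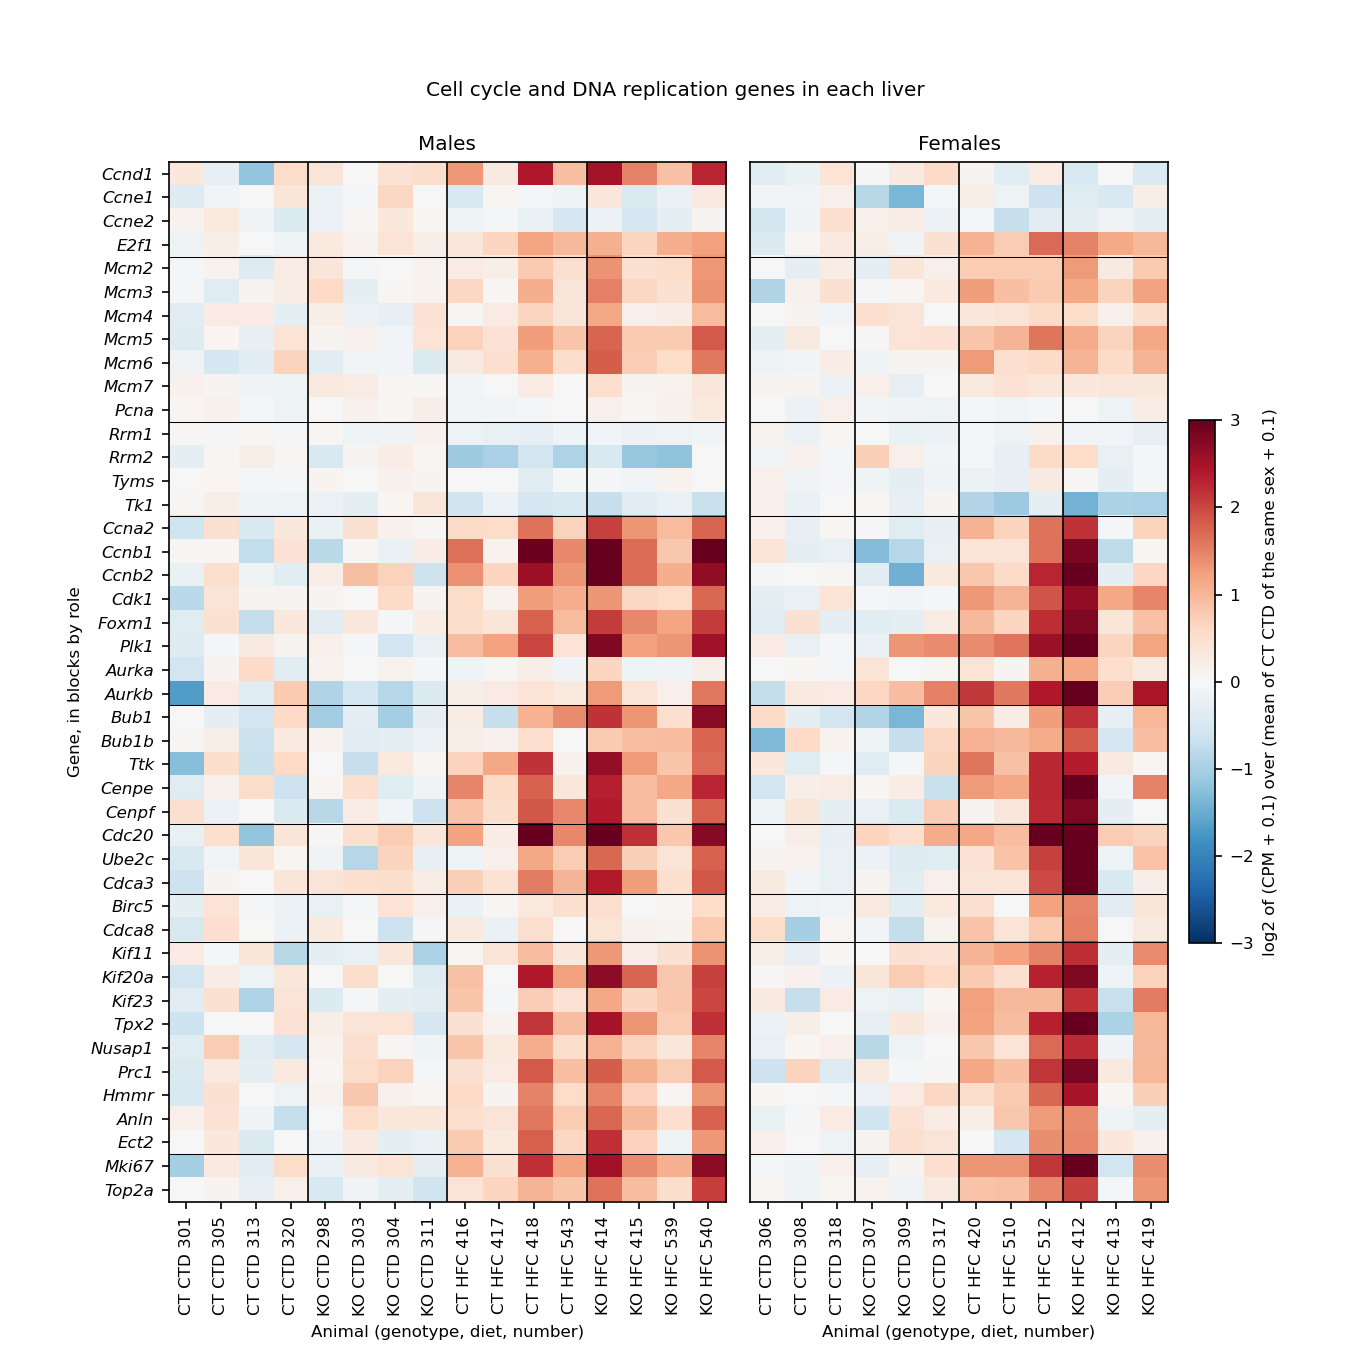
Level of each of the 44 genes (rows, in blocks by role) in each animal (columns, by genotype, diet and number), as log2 of CPM plus 0.1 over the mean of CT CTD animals of the same sex plus 0.1, with colours limited to 3 in either direction. Red is above and blue below that mean; male CT HFC 418, KO HFC 414 and 540, and female CT HFC 512 and KO HFC 412 are red over most mitotic rows, female KO HFC 413 is not, and the rows of Rrm2 and Tk1 are blue in most male HFC animals.

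The male counts leaned on single animals, more so in CT. Without CT HFC 418 only 2 genes were called in CT males, without CT CTD 301 it was 3, without CT CTD 313 it was 4, and without CT CTD 305 or CT HFC 543 it was 6. The CT calls of Mki67, Cdc20 and Kif20a each held in 4 of 12 alternatives, which change the processing or leave out 1 animal. In KO males 20 genes were called without KO HFC 414, and all 20 were higher. Scaling by library totals in place of TMM gave 23 higher and 1 lower in CT males, against 29.3% and 2.91% of all tested genes, and moved the median of all tested genes to 0.22 in CT and 0.26 in KO.

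The animals did not overlap between diets for 23 of the 44 genes in KO males, all higher on HFC, where 15.4% of all tested genes were higher without overlap and 14.7% lower. In CT males 8 genes were higher and 3 lower without overlap, against 11.4% and 10.2% of all tested genes. The share of called or separated genes in CT males is thus closer to that of all genes than in KO males.

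Among the 4 genes of G1 and S phase entry, E2f1 rose in both genotypes of males. It encodes a transcription factor that switches on replication genes. In CT males it stood at 2.18, 2.79, 2.44 and 2.25 CPM on CTD and at 3.1, 3.8, 5.59 and 4.86 CPM on HFC. In KO males it stood at 3, 2.59, 3.22 and 2.75 CPM on CTD and at 5.17, 3.81, 5.21 and 5.79 CPM on HFC. Every HFC male was above every CTD male of its genotype. The log2 fold change was 0.85 with a standard error (SE) of 0.18 in CT (adjusted p = 0.00424, edgeR) and 0.79 with an SE of 0.18 in KO (adjusted p = 0.0034).

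Ccnd1, which encodes cyclin D1, the partner of CDK4 and CDK6 at the start of G1, had the highest mean CPM of the 44 genes. It stood at 39.6, 29.9, 40.4 and 43.2 CPM in KO males on CTD and at 170, 83.9, 55.7 and 147 CPM on HFC, with no overlap. Its log2 fold change was 1.58 with an SE of 0.49 (adjusted p = 0.0292, edgeR). In CT males it ran from 13.2 to 44.3 CPM on CTD and from 36 to 160 CPM on HFC, and the groups overlapped. The log2 fold change of 1.44 missed the threshold there (SE 0.49, adjusted p = 0.0578, edgeR). The cyclin E genes Ccne1 and Ccne2, whose proteins partner CDK2 at S phase entry, passed the test in neither genotype, with log2 fold changes from -0.10 to -0.29. A stretch of 23.4% of the exonic bases of Ccnd1 and 17.4% of those of Ccne2 also belongs to a gene on the other strand, and whether counting used strand is not given in the sources used here.

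Of the 7 genes of the replication helicase and clamp, Mcm6, Mcm5, Mcm2 and Mcm3 rose in KO males and Mcm5 rose in CT males. Mcm2 to Mcm7 encode the subunits of the ring that unwinds DNA. Mcm6 stood at 2.96, 3.49, 3.51 and 2.75 CPM in KO males on CTD and at 13.3, 6.28, 5.5 and 11.3 CPM on HFC, without overlap. Its log2 fold change was 1.52 (SE 0.30, adjusted p = 0.00144, edgeR). Mcm5 rose by a log2 of 1.29 (SE 0.28, adjusted p = 0.00259, edgeR) in KO males and of 0.88 (SE 0.29, adjusted p = 0.0416) in CT males, without overlap in either. Mcm2 rose by a log2 of 0.87 and Mcm3 by 0.92 in KO males. Mcm4 had log2 fold changes of 0.62 in KO (adjusted p = 0.0592, edgeR) and 0.35 in CT. Mcm7 had 0.10 and 0.06 and was not called. Pcna, the sliding clamp of the DNA polymerases, stood between 19.3 and 26.3 CPM in all 16 males, with log2 fold changes of 0.08 and -0.05.

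The 4 deoxynucleotide supply genes went the other way or showed little difference in males. Rrm2 encodes the small subunit of ribonucleotide reductase, the enzyme that makes deoxynucleotides, and in dividing cells it is made in S phase. Rrm2 stood at 7.23, 8.91, 9.83 and 8.98 CPM in CT males on CTD and at 4.11, 4.42, 5.87 and 4.57 CPM on HFC, with no overlap. The log2 fold change was -0.88 (SE 0.23, adjusted p = 0.0121, edgeR). In KO males on CTD the values were 6.38, 9.27, 10.2 and 9.03 CPM. On HFC they were 6.29, 3.94, 3.72 and 8.6 CPM, in the order 414, 415, 539 and 540. These groups overlapped, since KO HFC 540 lay above the lowest CTD animal, and the log2 fold change was -0.63 (SE 0.22, adjusted p = 0.044, edgeR). KO HFC 414 and 540, the highest of the group in Rrm2, were also the highest in the summed mitotic genes. The KO call held in 3 of 12 alternatives, with adjusted p from 0.00368 to 0.248. It was lost with library totals, with no filter, with only the groups compared, and without any 1 of KO CTD 303, 304 or 311 or KO HFC 414, 415 or 539.

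Tk1, the thymidine kinase that salvages thymidine, fell in males by a log2 of 0.43 in CT (SE 0.15, adjusted p = 0.0496, edgeR) and 0.46 in KO (SE 0.15, adjusted p = 0.0255). It stood at 22.1, 23.9, 19.2 and 19 CPM in CT males on CTD and at 13.8, 18.7, 14.7 and 15.4 CPM on HFC, with no overlap. In KO males the CTD range of 17.1 to 27.1 CPM overlapped the HFC range of 13 to 18.3 CPM. The CT call held in 4 of 12 alternatives and the KO call in 6, with adjusted p up to 0.258 in each, with library totals. The CT call was also lost with no filter and without any 1 of CT CTD 301, 305 or 313 or CT HFC 416, 418 or 543. The KO call was also lost with only the groups compared and without any 1 of KO CTD 304 or 311 or KO HFC 414 or 540. Tk1 shares 1.6% of its exonic bases with Afmid, a gene on the other strand at 73.9 to 108 CPM in CT CTD males and 79.9 to 89.2 CPM in CT HFC males. In KO males Afmid ran from 80 to 133 CPM on CTD and from 58.7 to 86 CPM on HFC, with overlap, and its part in the value of Tk1 was not tested. Rrm1, the large subunit of ribonucleotide reductase, and Tyms, thymidylate synthase, were not called, with log2 fold changes of -0.18 and -0.09 in CT and -0.11 and -0.08 in KO.

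**Figure D2:**
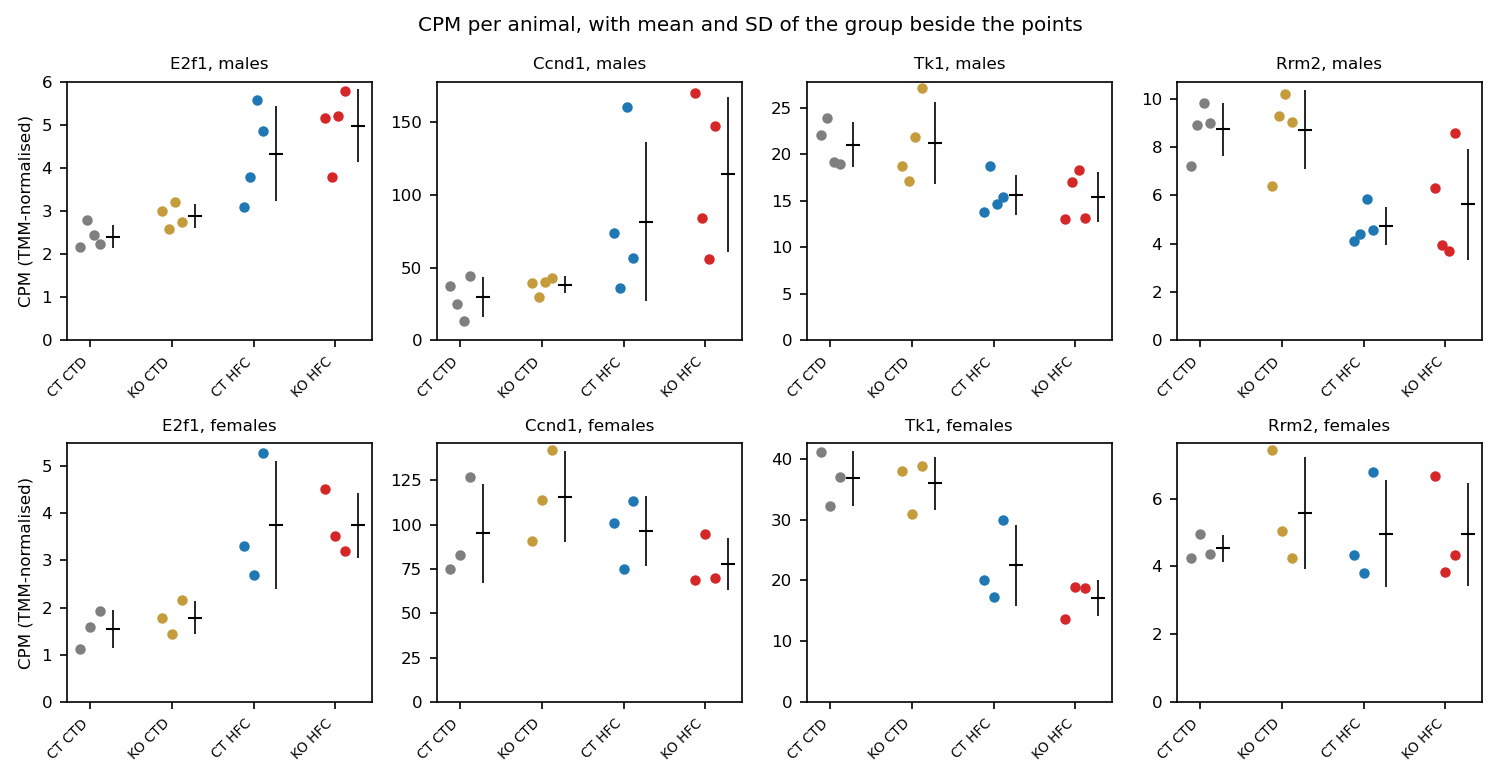
CPM after TMM scaling of E2f1, Ccnd1, Tk1 and Rrm2 in each animal (points), with the group mean and SD beside the points, for the 4 groups of males (upper row) and females (lower row); axes start at 0. E2f1 is higher on HFC in every genotype and sex, Ccnd1 is higher on HFC in KO males and not called in females, Tk1 is lower on HFC in males and in KO females, and Rrm2 is lower on HFC in males while the female groups overlap.

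Of the 8 mitotic cyclins and kinases and FOXM1, 7 rose in KO males and 5 in CT males. Plk1 encodes a kinase needed for spindle assembly and mitotic exit. In KO males it stood at 0.469, 0.399, 0.244 and 0.344 CPM on CTD and at 3.42, 1.11, 1.2 and 2.85 CPM on HFC. The lowest HFC animal was above the highest CTD animal, and the log2 fold change was 2.54 (SE 0.44, adjusted p = 0.000393, edgeR). In CT males Plk1 had a log2 fold change of 1.43 (SE 0.45, adjusted p = 0.0322, edgeR), again without overlap. Foxm1, the transcription factor of the mitotic genes, rose by a log2 of 1.84 (SE 0.36, adjusted p = 0.00114, edgeR) in KO males and of 1.11 (SE 0.37, adjusted p = 0.045) in CT males.

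The cyclins of S phase and mitosis moved with them. Ccna2, cyclin A2, ran from 1.08 to 1.74 CPM in KO males on CTD and from 2.48 to 5.51 CPM on HFC, a log2 fold change of 1.52 (SE 0.32, adjusted p = 0.00183, edgeR). It shares 12.5% of its exonic bases with Exosc9 on the other strand. Exosc9 ran from 8.07 to 9.38 CPM in KO males on CTD and from 8.57 to 9.12 CPM on HFC. Ccnb1, cyclin B1, the partner of CDK1, stood at 0.0938, 0.249, 0.195 and 0.295 CPM in KO males on CTD, where 1 count is worth 0.037 to 0.052 CPM, and at 2.79, 0.984, 0.496 and 2.61 CPM on HFC. Its log2 fold change was 3.03 (SE 0.69, adjusted p = 0.00358, edgeR), and in CT males 2.22 (SE 0.69, adjusted p = 0.0322). Ccnb2 rose by a log2 of 1.90 in CT males and 2.15 in KO males, and Ccna2 by 0.98 in CT males. Cdk1, the kinase that starts mitosis, was called in KO males at 0.97 (adjusted p = 0.029, edgeR) and had 0.86 in CT males (adjusted p = 0.0738). Of the 2 Aurora kinases, Aurkb, the enzyme of the chromosomal passenger complex, rose in KO males by a log2 of 1.85, while Aurka, the kinase of the spindle poles, had 0.14 in KO and 0.01 in CT males and was not called.

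All 5 checkpoint and kinetochore genes rose in KO males without overlap, and Cenpf and Cenpe rose in CT males. Bub1b, which encodes the checkpoint kinase-like protein BubR1, stood at 1.03, 0.748, 0.78 and 0.835 CPM in KO males on CTD and at 1.71, 1.89, 1.9 and 3.47 CPM on HFC. Its log2 fold change was 1.39 (SE 0.27, adjusted p = 0.00101, edgeR), and in CT males 0.23 (SE 0.28, adjusted p = 0.604) with overlapping groups. Bub1, the checkpoint kinase at kinetochores, was near the floor of detection in KO males on CTD, at 0.0469, 0.15, 0.0488 and 0.147 CPM, and stood at 1.27, 0.656, 0.331 and 1.88 CPM on HFC. The fitted log2 fold change of 3.34 (SE 0.68, adjusted p = 0.0014, edgeR) rests on those low counts. Cenpf, a kinetochore protein, rose by a log2 of 2.04 in KO and 1.41 in CT males, and Cenpe, the kinetochore motor, by 1.92 and 1.30. Ttk, the kinase MPS1, rose by 2.42 in KO males and was at 0 counts in CT CTD 301.

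All 3 genes of proteolysis and mitotic exit rose in KO males, and Cdc20 rose in CT males. Cdc20 activates the anaphase-promoting complex. It stood at 0.375, 0.548, 0.683 and 0.491 CPM in KO males on CTD and at 5.1, 2.01, 0.703 and 2.98 CPM on HFC, where KO HFC 539 lay just above the highest CTD animal. The log2 fold change was 2.36 (SE 0.65, adjusted p = 0.0132, edgeR), and in CT males 2.09 (SE 0.70, adjusted p = 0.0483). Ube2c, the ubiquitin-conjugating enzyme of that complex, rose by a log2 of 1.37 and Cdca3, a trigger of mitotic entry, by 1.31 in KO males. Ube2c shares 22.8% of its exonic bases with Tnnc2 on the other strand, which was at 0 CPM in all 28 libraries. Cdc20 shares 2.84% with Elovl1 on the other strand. Elovl1 ran from 36.7 to 44.1 CPM in KO males on CTD and from 44.9 to 56.3 CPM on HFC. Its part in the value of Cdc20 was not tested.

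Birc5 and Cdca8, the genes placed here under the passenger complex, were not called in males. Aurkb, the enzyme of that complex, was counted above with the kinases and rose in KO males. Birc5, survivin, had log2 fold changes of 0.22 in KO and 0.18 in CT males, and Cdca8, borealin, 0.47 (adjusted p = 0.198, edgeR) and 0.19. Their CTD levels, 2.28 to 3.74 CPM for Birc5 in CT males, lay above those of most other mitotic genes.

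Of the 9 spindle and cytokinesis genes, 7 rose in KO males and Kif20a alone passed the test in CT males. The 4 with the smallest p in KO males were Kif23, Kif20a, Tpx2 and Kif11. Kif23, a motor of the central spindle, stood at 0.798, 1.05, 0.878 and 0.835 CPM in KO males on CTD and at 2.53, 1.76, 1.98 and 4.69 CPM on HFC, a log2 fold change of 1.62 (SE 0.35, adjusted p = 0.00217, edgeR). Kif20a, a motor needed for cytokinesis, rose by a log2 of 2.00 in KO and 1.48 in CT males. It shares 29.3% of its exonic bases with Cdc23 on the other strand, which lay between 8.74 and 11.4 CPM in every male. Tpx2, which activates Aurora A on the spindle, rose by a log2 of 1.80, and Kif11, the motor that pushes spindle poles apart, by 1.17. Prc1, Anln and Ect2, genes of the cleavage furrow and central spindle, rose by 1.14, 1.08 and 1.41 in KO males. Nusap1 and Hmmr, spindle proteins, had 0.83 (adjusted p = 0.0546, edgeR) and 0.70 (adjusted p = 0.134) and were not called.

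Top2a, the topoisomerase that untangles sister chromosomes, had the smallest p of the 44 genes in KO males. It stood at 2.06, 2.64, 2.34 and 1.87 CPM on CTD and at 9.08, 5.5, 4.14 and 12.3 CPM on HFC. Its log2 fold change was 1.80 (SE 0.27, adjusted p = 0.000128, edgeR), and in CT males 0.76 (SE 0.27, adjusted p = 0.057) with no overlap of the animals. Mki67, which encodes Ki-67, the antigen used to stain dividing cells, stood at 2.67, 3.74, 4.1 and 2.55 CPM in KO males on CTD and at 18.1, 8.37, 6.58 and 20.3 CPM on HFC. Its log2 fold change was 2.03 (SE 0.45, adjusted p = 0.00413, edgeR) in KO and 1.39 (SE 0.46, adjusted p = 0.0479) in CT males.

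**Figure D3:**
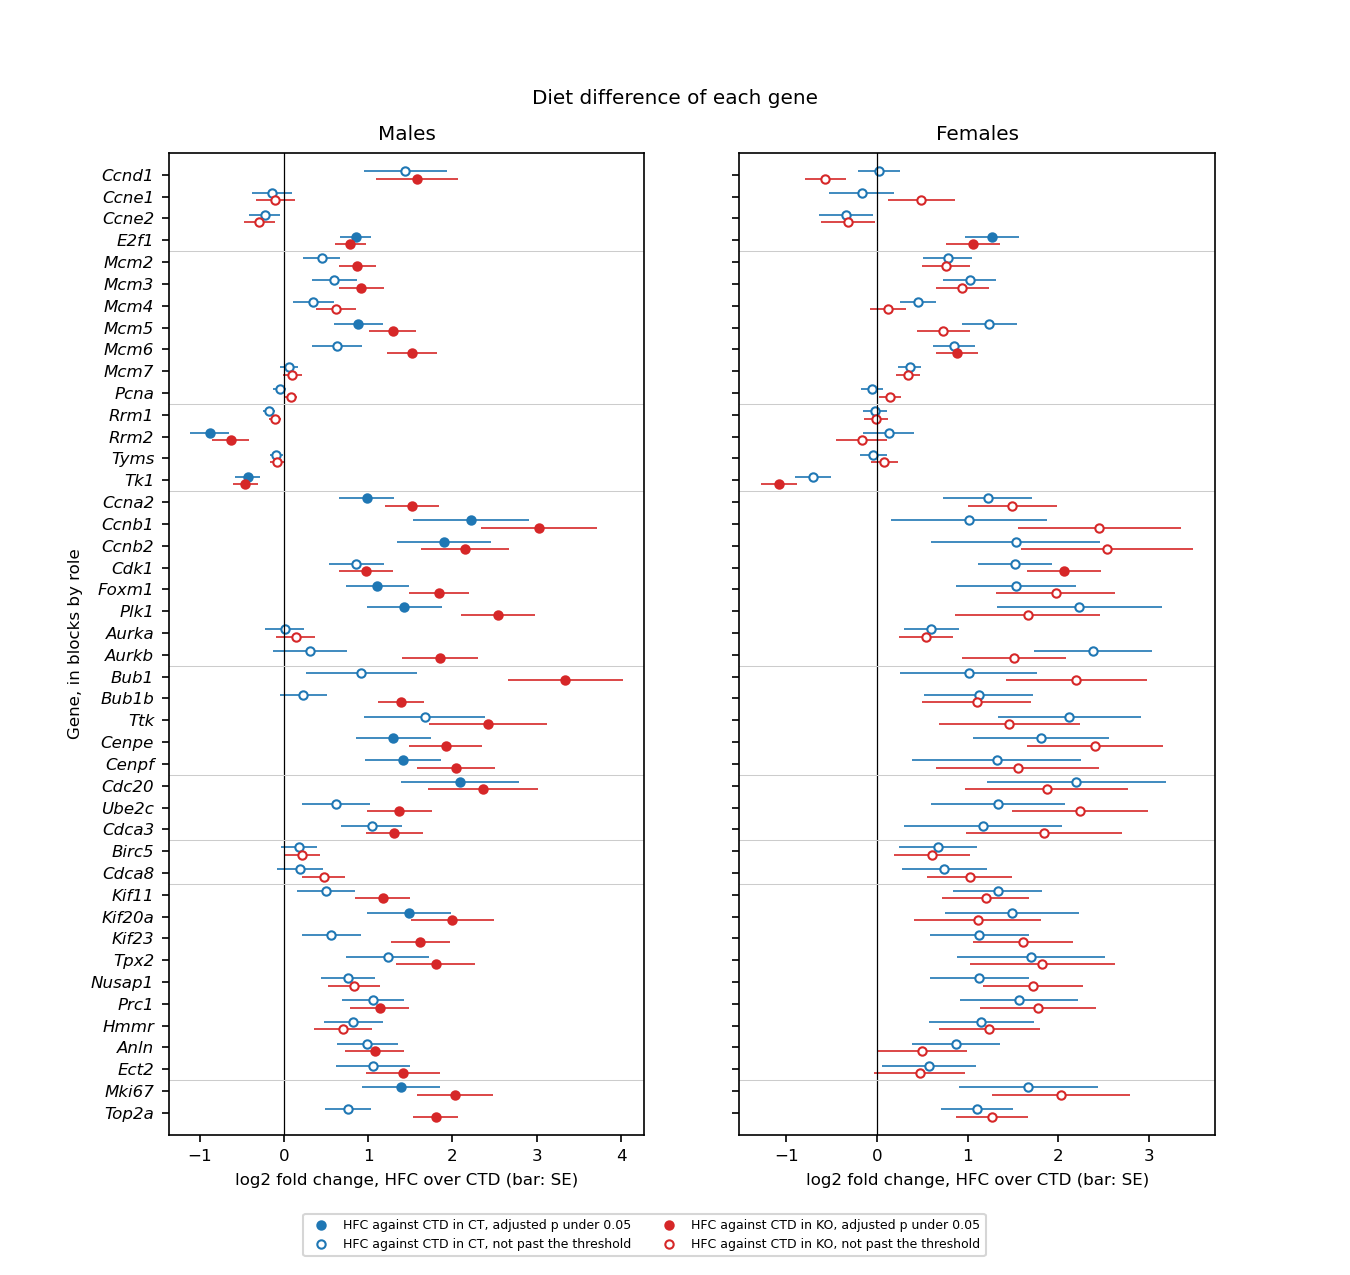
Log2 fold change of HFC over CTD for each of the 44 genes, with its SE as a bar, in CT (blue) and KO (red), for males and females; filled points passed an adjusted p of 0.05 in edgeR and open points did not. In males 30 red and 12 blue points to the right of 0 are filled and Rrm2 and Tk1 are filled to the left; in females the mitotic genes lie as far right with longer bars, and few points are filled.

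In females few of the 44 genes passed the test. In CT females E2f1 was the 1 gene called higher and none was called lower, against 0.936% and 1.26% of all tested genes. In KO females Cdk1, Mcm6 and E2f1 were called higher and Tk1 lower, against 3.94% and 4.65% of all tested genes. The median log2 fold change of the 44 was 1.12 in CT and 1.15 in KO, with 0.00 and 0.02 over all tested genes. At an unadjusted p under 0.05 there were 19 genes in CT and 26 in KO females, against 20.3% and 25.7% of all tested genes. DESeq2 called 6 higher and 1 lower in CT females, where it called 2.96% of all genes higher and 3.61% lower. In KO females it called 14 higher and 1 lower, against 6.61% and 7.12%. Library totals gave 10 higher and 0 lower in CT, against 12.1% and 1.04% of all tested genes. They gave 23 higher and 1 lower in KO, against 24% and 2.71%, and moved the median of all tested genes to 0.30 and 0.32. Without any 1 of CT CTD 306, 308 or 318 or CT HFC 420 or 510 no gene was called in CT females, and without CT HFC 512 the 1 gene called was Tk1, lower. In KO females 22 genes were called without KO HFC 413, and 2 without any 1 of KO CTD 307, 309 or 317 or KO HFC 412 or 419.

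The animals of the CT females did not overlap between diets for 29 genes higher and 1 lower on HFC, against 14.3% and 14.1% of all tested genes. In KO females 9 were higher and 1 lower without overlap, against 12.2% and 14.1%. Mki67 stood at 3.63, 3.45 and 4.2 CPM in CT females on CTD and at 9.52, 9.49 and 17 CPM on HFC. In KO females it stood at 3.13, 4 and 5.38 CPM on CTD and at 38.5, 2.51 and 10 CPM on HFC. KO HFC 413, the lowest of that last group, was below every female on CTD, while KO HFC 412 was the highest of all 28 livers. The log2 fold changes of Mki67 were 1.67 (SE 0.77, adjusted p = 0.258, edgeR) in CT and 2.03 (SE 0.76, adjusted p = 0.129) in KO females.

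By role, E2f1 in females stood at 1.13, 1.58 and 1.93 CPM in CT on CTD and at 3.3, 2.69 and 5.28 CPM on HFC, a log2 fold change of 1.27 (SE 0.30, adjusted p = 0.0497, edgeR). In KO females it stood at 1.77, 1.44 and 2.15 CPM on CTD and at 4.52, 3.51 and 3.2 CPM on HFC, a log2 fold change of 1.06 (SE 0.30, adjusted p = 0.044). E2f1 was thus the 1 gene of the 44 called higher in all 4 diet comparisons, which share no animals. The call in CT females was lost when any 1 animal was left out (adjusted p up to 0.209 over the alternatives, edgeR), and that in KO females under 6 of the 10 alternatives (adjusted p up to 0.145). E2f1 and Mcm5 were the 2 genes whose HFC animals lay above all CTD animals in all 4. The shares of all tested genes called higher, or higher without overlap, in all 4 comparisons were not counted. Mcm6 rose in KO females by a log2 of 0.88 (SE 0.23, adjusted p = 0.0309, edgeR). That call held in 4 of 10 alternatives. It was lost with only the groups compared and without any 1 of KO CTD 307, 309 or 317 or KO HFC 412 or 419. In CT females Mcm5 had the smallest p of the helicase genes, with 1.24 (adjusted p = 0.0508, edgeR).

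Tk1 fell in KO females by a log2 of 1.08 (SE 0.20, adjusted p = 0.00647, edgeR), from 38, 31 and 38.9 CPM on CTD to 13.6, 18.9 and 18.7 CPM on HFC. In CT females it stood at 41.1, 32.2 and 37 CPM on CTD and at 20.1, 17.3 and 30 CPM on HFC, with no overlap and a log2 fold change of -0.71 (SE 0.20, adjusted p = 0.0772, edgeR). The KO call held in all 10 alternatives, with adjusted p from 3.9e-05 to 0.0275. Afmid, the overlapping gene, ran from 156 to 200 CPM in KO females on CTD and from 36.3 to 82.5 CPM on HFC. Its part was not tested here either.

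Rrm2 was not called in females, with log2 fold changes of 0.13 (SE 0.28) in CT and -0.17 (SE 0.28) in KO. Whether it differs from the male decrease was not tested, since the sexes are separate tables. Ccnd1 was not called in females either, at 0.02 (SE 0.23) in CT and -0.57 (SE 0.23, adjusted p = 0.143, edgeR) in KO. Its CTD levels per kilobase of exon were 20.1 CPM in CT females and 6.38 CPM in CT males. Each sex was scaled on its own, and this difference was not tested either.

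Cdk1 was the 1 mitotic gene called in females. It stood at 1.12, 1.11 and 1.13 CPM in KO females on CTD and at 7.94, 2.75 and 3.39 CPM on HFC, a log2 fold change of 2.06 (SE 0.41, adjusted p = 0.00875, edgeR), and the call held in all 10 alternatives. In CT females it had 1.52 (SE 0.41, adjusted p = 0.0707, edgeR), also without overlap. The smallest p of the other mitotic roles in KO females belonged to Cenpe (log2 fold change 2.40, adjusted p = 0.0672, edgeR), Ube2c (2.24, adjusted p = 0.0905), Cdca8 (1.02, adjusted p = 0.19), Nusap1 (1.72, adjusted p = 0.072) and Top2a (1.27, adjusted p = 0.07). In CT females they belonged to Cdk1, Ttk (2.12, adjusted p = 0.161, edgeR), Cdc20 (2.20, adjusted p = 0.242), Cdca8 (0.74, adjusted p = 0.395), Kif11 (1.33, adjusted p = 0.159) and Top2a (1.10, adjusted p = 0.158).

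Over both sexes and genotypes, 36 of the 44 genes had a log2 fold change above 0 in all 4 diet comparisons, among them all 29 mitotic genes. Ccne2, Rrm1 and Tk1 were below 0 in all 4. The 12 genes called in none were Ccne1, Ccne2, Mcm4, Mcm7, Pcna, Rrm1, Tyms, Aurka, Birc5, Cdca8, Nusap1 and Hmmr. Several of these were among the most abundant of the 44 per kilobase of exon: in CT CTD males Pcna stood at 8.96 CPM per kilobase, Mcm7 at 2.44, Tyms at 1.78 and Rrm1 at 1.39. Ttk, Cenpf, Bub1 and Ccnb1 stood at 0.029, 0.0375, 0.0466 and 0.0569 CPM per kilobase in the same animals. Called genes were among the most abundant too, with Ccnd1, Tk1 and Rrm2 at 6.38, 4.05 and 3.15 CPM per kilobase. The uncalled Cdca8, Nusap1 and Hmmr stood at 0.287, 0.291 and 0.296. Among the 24 genes called higher in KO males that had a promoter window, 18 held the letters of a CHR element and 22 a CCAAT box. Among the 12 with a window that were not called higher, 4 and 7 did. Of the 30 genes called higher in KO males 24 were mitotic, and the call and the role were not separated here.

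Between genotypes no gene of the 44 was called on either diet or in the interaction of genotype and diet, in either sex, and neither was any other tested gene (0% of all tested genes in each of the 6 comparisons, edgeR). DESeq2 called none of the 44 either, and of all genes 11, 3 and 5 in the male comparisons on CTD, on HFC and of the interaction and 1, 0 and 0 in the female ones. On HFC 43 of the 44 genes were nonetheless above 0 in KO against CT males, with a median log2 fold change of 0.48 and 0.00 over all tested genes. At an unadjusted p under 0.05 there were 11 of the 44 genes in that comparison, and 4.64% of all tested genes. In the interaction in males there were 5, against 6.05%. None of the 44 was under 0.05 in CTD males (6.74% of all tested genes) or in females on CTD (3.19%), on HFC (2.22%) or in the interaction (3.9%).

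Bub1b had the smallest unadjusted p of the 44 on HFC in males, 0.00134 in edgeR. It stood at 1.09, 1.06, 1.4 and 0.955 CPM in CT HFC and at 1.71, 1.89, 1.9 and 3.47 CPM in KO HFC males, without overlap. The log2 fold change was 0.99 (SE 0.26), but its adjusted p was 0.958 in edgeR. Its interaction term was 1.16 (SE 0.39, adjusted p = 0.73). Pcna was the other gene without overlap between the genotypes on HFC, at 0.21 (SE 0.07, adjusted p = 0.958). Of all tested genes 1.09% were higher in KO without overlap in that comparison. The larger number of calls in KO than in CT males is therefore not a shown difference between genotypes.

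The summed level of the mitotic genes differed widely between animals of a group on HFC. Summed over the 29 mitotic genes, males on CTD ran from 25.3 to 40.6 CPM. Males on HFC followed in the order KO 414 at 125, KO 540 at 122, CT 418 at 96.3, KO 415 at 64.1, CT 543 at 56.8, KO 539 at 50.4, CT 416 at 49.9 and CT 417 at 41.2 CPM. Every HFC male was above every CTD male, CT 417 by less than the spread among CTD animals. Females on CTD ran from 34.5 to 44 CPM, and females on HFC stood at 227 (KO 412), 131 (CT 512), 68.3 (KO 419), 67.4 (CT 420), 61.4 (CT 510) and 34.5 CPM (KO 413). The same few animals were high gene after gene. CT HFC 418 was the highest of its group in 35 of the 44 genes, female CT HFC 512 in 35 and female KO HFC 412 in 36, among them all 29 mitotic genes. Female KO HFC 413 was the lowest of its group in 33.

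**Figure D4:**
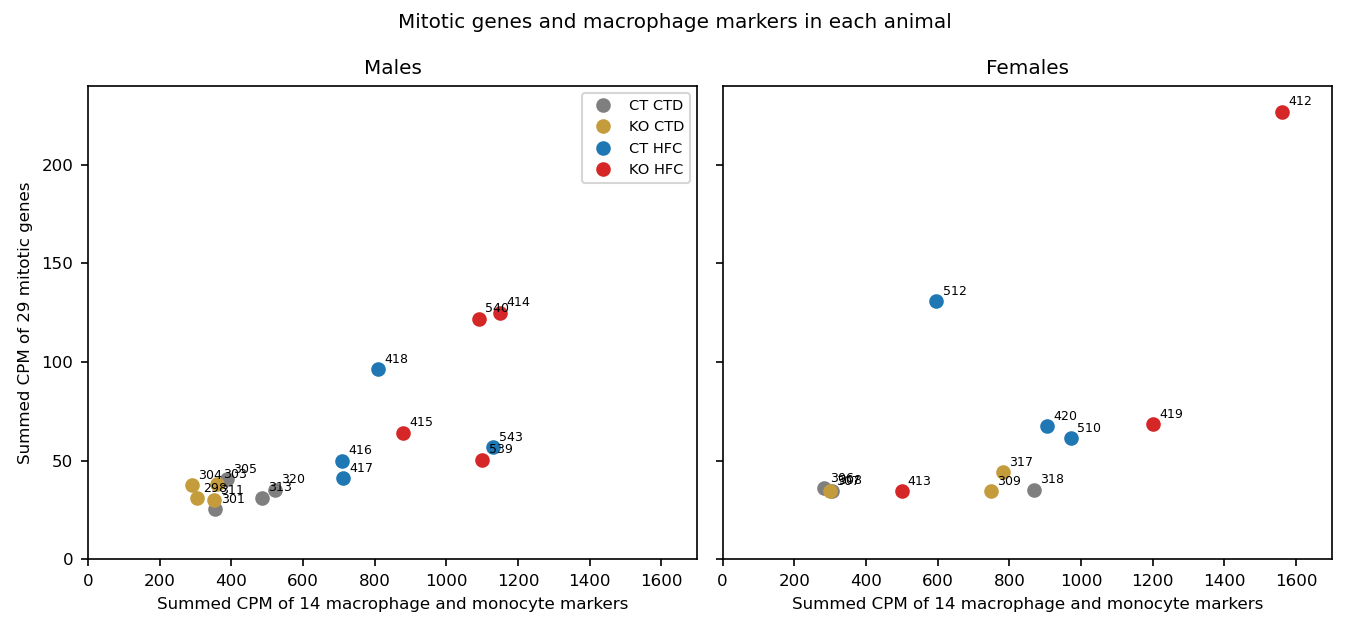
Summed CPM of the 29 mitotic genes (vertical axis) and of 14 macrophage and monocyte markers (horizontal axis) in each animal, labelled by its number and coloured by group, for males and females. Every HFC male lies above every CTD male on both axes. Male KO HFC 414 has 1150 CPM of macrophage markers with 125 CPM of mitotic genes. Male KO HFC 540 has 1090 CPM with 122 CPM, and KO HFC 539 has 1100 CPM with 50.4 CPM. Female KO HFC 412 has 1560 CPM with 227 CPM, and CT HFC 512 has 596 CPM with 131 CPM. Female CTD animals up to 868 CPM stay between 34.5 and 44 CPM.

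Many markers of macrophages and monocytes, T and NK cells and neutrophils rose on HFC in the same male livers. Of all tested genes 10.6% were called higher and 9.4% lower in CT males, and 15.5% and 13.6% in KO males. Of the macrophage and monocyte markers, 12 of 14 rose in CT and 14 of 14 in KO males, and their sum went from 291 to 521 CPM on CTD to 710 to 1150 CPM on HFC. T and NK cell markers rose for 6 and 9 of 12 tested, from sums of 7.48 to 12.3 CPM on CTD to 16 to 24.9 CPM on HFC. Neutrophil markers rose for 6 and 4 of 6 tested, endothelial markers for 1 and 3 of 13, and hepatocyte markers fell for 2 and 3 of 10. B cell markers rose for 1 and 5 of 7 tested, cholangiocyte markers for 0 and 3 of 7 and stellate cell markers for 0 and 2 of 11, and erythroid markers fell for 1 of 8 tested in each genotype. In females none of the macrophage, T and NK cell, B cell, stellate cell or cholangiocyte markers was called by edgeR in either genotype. At an unadjusted p under 0.05 there were, in that order, 3, 9, 1, 1 and 1 of them in CT females. In KO females there were 5, 3, 0, 5 and 0. There were also 7 of 7 tested neutrophil, 8 of 13 endothelial, 4 of 8 tested erythroid and 4 of 10 hepatocyte markers in CT females. In KO females there were 4, 4, 6 and 5 of these. Of all tested genes 20.3% were under that cut in CT and 25.7% in KO females. In KO females 1 of 7 tested neutrophil markers and 1 of 13 endothelial markers rose, and hepatocyte markers fell for 1 of 10 in CT and 4 of 10 in KO. Of 8 tested erythroid markers 1 rose in CT, and 1 rose and 1 fell in KO females. Of all tested genes 0.936% were called higher and 1.26% lower in CT females, and 3.94% and 4.65% in KO females. No marker of these lists was at 0 in every animal of a group, apart from Ly6g in CT CTD females. Every HFC male was above every CTD male in the sums of macrophage markers and of mitotic genes. Male KO HFC 414 was the highest male in both, with 1150 CPM of macrophage markers and 125 CPM of mitotic genes. KO HFC 540 had 1090 CPM of macrophage markers with 122 CPM of mitotic genes, and KO HFC 539 had 1100 CPM with 50.4 CPM. In females CT CTD 318 had 868 CPM of macrophage markers with 35.3 CPM of mitotic genes, and CT HFC 512 had 596 CPM with 131 CPM. Female KO HFC 412 had the most macrophage markers, 1560 CPM, with 227 CPM of mitotic genes, and KO HFC 413 had 499 CPM with 34.5 CPM. Erythroid markers summed to 1090 CPM in CT HFC 512 and 1010 CPM in KO HFC 412, and cholangiocyte markers to 264 CPM in male KO HFC 414 and 215 CPM in female KO HFC 412. Other animals did not pair in this way. Erythroid markers summed to 302 CPM in male KO HFC 414 and 387 CPM in male KO HFC 540. Cholangiocyte markers summed to 92.3 CPM in male KO HFC 540 and 93.7 CPM in female CT HFC 512. Female KO CTD 309 had 176 CPM of them with 34.6 CPM of mitotic genes. The part of these cells in the levels of the 44 genes was not tested.

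Other genes of the cell cycle were read from lists of the same kind. Of 30 tested spindle and cytokinesis genes outside the 44, 10 rose in CT and 23 in KO males and none fell. Cdkn3, a phosphatase that acts on CDKs, rose by a log2 of 2.71 in CT and 2.56 in KO males, and Stmn1, which destabilises microtubules, by 0.79 and 0.88. The kinase gene Nek2 rose by 0.85 in CT males, and Pbk by 1.91 in KO males. Of 17 kinetochore and centromere genes, 3 rose and 1 fell in CT and 7 rose and 1 fell in KO males. Zwint and Incenp rose in CT males by 0.41 and 0.68 and Spc24 fell by 0.58. In KO males Incenp rose by 1.19, Knl1 by 2.05 and Nuf2 by 1.49. Of 10 condensin and cohesion genes 4 rose in each, led by Esco2 (1.69 and 1.76), Ncapg2 (1.01 and 1.65) and Espl1, the separase (1.60 and 2.09). Mad2l1 and Pkmyt1 rose in KO males, by 0.93 and 1.25, of 9 checkpoint kinases and phosphatases tested, and none in CT males.

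Genes of origin licensing and the fork outside the helicase were mixed. Of 39 tested, 1 rose and 2 fell in CT males and 7 rose and 1 fell in KO males. Dbf4, the activator of the CDC7 kinase, rose by a log2 of 0.79 in CT males, where Rpa1 fell by 0.36 and Mcm10 by 1.09. Rfc3, Cdc6 and Clspn rose by 0.66, 2.24 and 1.85 in KO males. Of 15 E2F, DREAM and MYB-MuvB factors outside the 44, Tfdp2 fell by 0.43 and Lin37 rose by 0.39 in CT males. E2f3 and E2f2 rose by 0.33 and 0.85 and Tfdp2 fell by 0.32 in KO males. Ccnf and Ccnd3 fell by 1.03 and 0.42 in KO males, of 6 other cyclins and CDKs, and none of the 6 passed the test in CT males. Of 8 tested CDK inhibitors and pocket proteins, Rb1 fell by 0.33 in CT and Rbl1 rose by 1.18 in KO males.

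In females the same lists gave few calls. Cdkn1a, which encodes the CDK inhibitor p21, rose by a log2 of 2.51 in CT (SE 0.54, adjusted p = 0.0435, edgeR) and 2.48 in KO (SE 0.51, adjusted p = 0.0158). Its means went from 2.25 ± 0.775 CPM (SD, n = 3) on CTD to 12.9 ± 0.284 CPM on HFC in CT and from 4.22 ± 2.15 to 23.6 ± 16.3 CPM in KO females. In males Cdkn1a had 0.51 (SE 0.62) in CT and 0.58 (SE 0.61) in KO and was not called. Nek2 rose by 1.69 in CT and 1.96 in KO females. In KO females Dbf4 and Lig1 rose by 1.88 and 0.71 and Mcm10 fell by 0.91, and Pkmyt1, Cdc25a, Incenp, Ncaph and Ncapg rose by 1.77, 0.99, 1.49, 1.43 and 2.73.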

How the data were processed

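Liver RNA of 28 mice was sequenced, 16 males and 12 females. The authors deposited raw counts per gene, 1 table per sex. The submitters' processing notes name edgeR and FastQC and the build GRCm38 (mm10). No aligner, counter or strand setting is given in the sources used here. Each table was fitted on its own with edgeR 4.0.16 in R 4.3.3: filterByExpr, TMM factors, robust quasi-likelihood F test with all 4 groups of the sex, Benjamini-Hochberg adjustment over all tested genes and a threshold of 0.05. An SE is the absolute log2 fold change over the square root of F. Alternatives were DESeq2 1.42.0, library totals, no filter, a fit of only the groups compared, and leaving out each animal. The fit was tested on simulated data. No 2 animals of a group agreed within sampling noise (lowest chi-square per degree of freedom 11.9 over 36 pairs). Depth of 18741939 to 22652285 counts per library puts 1 count at 0.037 to 0.063 CPM; errors of genes near it are wide. The genes and all lists were chosen with earlier results of these data known. Within each role the genes called were named when 4 or fewer and otherwise the 4 with the smallest p, and the smallest p where none was called, with up to 3 called genes for each other list; further genes were named to account for all 44. Of the list genes 4 were matched by an older symbol. Promoter windows are from RefSeq (GRCm38.p6) and exon overlaps and lengths from GENCODE M21 (GRCm38). Of the 44 genes 14 share exonic bases with another gene, 12 of them with a protein-coding gene.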

Additional observations from a re-analysis of the deposited data

Results flagged for a closer look

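In male groups of 4, the highest or lowest animal's gap to its neighbour over the group's range was set against Dixon's 95% limit. Of 192 checks, over single genes and summed levels, 8 passed it, all of them values of the 44 genes. Chance flags about 1 in 20 checks, so 8 is not an excess. On CTD, CT 305 was high in Ccnb2 (0.548 CPM, the others 0.27 to 0.312) and Nusap1 (2.09 CPM, the others 0.808 to 0.936). KO CTD 304 was high in Ccne1 (3.46 CPM, the others 1.97 to 2.21) and Cdk1 (2.24 CPM, the others 1.45 to 1.57), and KO CTD 303 in Hmmr (2.89 CPM, the others 1.67 to 1.76). On HFC, CT 418 was high in Ccna2 (4.07 CPM, the others 1.85 to 2.08) and low in Tyms (8.7 CPM, the others 10.6 to 10.8), and KO 540 was high in Bub1b (3.46 CPM, the others 1.71 to 1.9). Groups of 3 females were not examined in this way.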

How the results depend on the processing

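None of the 66 fold changes of single genes recomputed here changed sign under an alternative. Without CT HFC 512 the 1 gene called in CT females was Tk1, lower, in place of E2f1, higher. In males on HFC against CTD, the 14 genes called in CT became 24 with library totals and 8 with no filter on low counts, and 2 to 20 when an animal was left out. The 32 called in KO males became 20 to 34 when an animal was left out. In females, the 1 gene called in CT became 7 with DESeq2, 10 with library totals, 11 with only the groups compared and 0 to 1 when an animal was left out. The 4 called in KO females became 15, 24, 2 and 2 to 22. The cause of these shifts was not tested. Leaving out an animal changes both the size of its group and which animals remain in it. The genotype and interaction counts were 0 in all settings run. Over 756 values of single genes under an alternative, 597 stayed on their side of the threshold, 135 lost it and 24 gained it. DESeq2 gave no adjusted p for Cdc20 in females. No paired analysis was possible because every animal carries its own number. Low counts limit the mitotic genes on CTD.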

Other observations

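Of the cell cycle genes outside the 44, Mcm10, a replication factor that binds the MCM helicase, had high counts in these livers and went the other way from the helicase genes. Its mean was 78.8 ± 28.4 CPM (SD, n = 4) in CT and 77.7 ± 10.5 CPM in KO males on CTD and 37 ± 17.7 and 29.1 ± 10.4 CPM on HFC. Log2 fold changes were -1.09 (adjusted p = 0.0463, edgeR) in CT and -1.42 (adjusted p = 0.00956) in KO males. In females the means went from 26 ± 3.81 to 15.4 ± 1.51 CPM in CT (SD, n = 3; adjusted p = 0.0636, edgeR) and from 25.1 ± 2.4 to 13.4 ± 4.14 CPM in KO (adjusted p = 0.0141). Ccnf, cyclin F, an F-box protein that promotes the breakdown of several replication proteins, fell from 29.2 ± 3.29 to 14.3 ± 3.29 CPM in KO males (SD, n = 4; log2 fold change -1.03, adjusted p = 0.000208, edgeR). It had -0.33 in CT males (adjusted p = 0.164), 0.61 in CT females (adjusted p = 0.24) and -0.11 in KO females. Both genes were singled out after their values were seen.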
